A study of Mus musculus with 25 samples.

Results

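The 49 genes described here form the cell cycle and DNA replication module of mouse hepatic progenitor cells, and they were looked up by symbol in a table of 24984 genes. Of these members, 23 act at the G1/S transition or in DNA replication and 26 act in G2 or mitosis. All 49 were measured in each of 25 RNA libraries and passed the filter on low counts in every comparison.

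The libraries came from BMEL cells, a line of bipotential progenitors picked as a clone from the liver of a C57BL/6 x C3H mouse embryo, and from tumours that such cells formed in mice. Cultures of BMEL cells carrying an empty vector, of RasLOW cells and of RasHIGH cells were sequenced, 3 of each. The RasLOW and RasHIGH populations carry a retroviral human H-Ras G12V cDNA linked to Venus or mCherry, were gated by fluorescence intensity and remain mixtures of cells with different oncogene doses. The labels describe all 9 cultures as growing exponentially on collagen. Tumours had been dissociated and sorted into GFP-positive tumour cells and GFP-negative stroma, with 1 liver tumour and 1 peritoneal tumour from each of 4 mice, which gave 4 libraries in each of 4 groups. The methods list athymic nude mice, which lack mature T cells, among the hosts, and the labels name neither the strain or age of these 4 mice nor the Ras population injected. Bulk libraries were sequenced, in which fewer dividing cells and less RNA per dividing cell cannot be told apart.

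A cell that is about to divide first licenses its replication origins by loading the MCM helicase, then fires them at the G1/S transition, when E2F transcription factors raise the genes of DNA synthesis. Genes of G2 and mitosis follow later under MuvB complexes with Mybl2 and Foxm1, and their products condense, align and part the chromosomes. In resting cells both waves of genes are kept low, which is why their RNA is widely read as a measure of proliferation. The adult liver divides little, and its progenitors and tumours divide more.

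The 2 waves differ in their promoters, and 4 promoters are printed to show the letters through which they are usually recognised. A cell cycle homology region (CHR, TTTGAA or TTCGAA) and the CCAAT box (CCAAT) are typical of the G2 and mitosis genes, and E2F sites (TTTCGCGC, TTTGGCGC or TTTCCCGC) of the replication genes. RefSeq windows of GRCm38.p6 from 250 bases before to 50 bases after the gene start were found for 40 of the 49 members, and both strands were searched. CHR letters were present in 16 of the 20 matched G2 and mitosis members (80%) and in 4 of the 20 matched replication members (20%), against 19.2% of all 32851 promoters. E2F letters were present in 1 of 20 G2 and mitosis members (5%), which was Cdk1, and in 10 of 20 replication members (50%), against 1.84% of all promoters. The CCAAT box was found in 18 of 20 (90%) and 13 of 20 (65%) members, against 37.4% of all promoters. Such a match describes letters and not a bound site. The stretches run from 200 bases before to 30 bases after the gene start, 5′ to 3′ on the strand of the gene, with capitals marking the 3 motifs on either strand. They are Ccnb2 at chr9:70421525-70421754 and Cdc20 at chr4:118437314-118437543, both on the minus strand, with CHR and CCAAT letters only, Cdk1 at chr10:69352883-69353112 on the minus strand, which holds all 3 motifs, and Mcm5 at chr8:75109309-75109538 on the plus strand, with CCAAT boxes and 2 overlapping E2F matches but no CHR.
Ccnb2: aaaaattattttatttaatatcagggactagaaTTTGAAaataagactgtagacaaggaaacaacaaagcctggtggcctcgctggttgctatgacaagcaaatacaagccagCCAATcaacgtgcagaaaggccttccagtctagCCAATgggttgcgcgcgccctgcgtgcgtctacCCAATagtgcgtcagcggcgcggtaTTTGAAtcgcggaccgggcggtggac
Cdc20: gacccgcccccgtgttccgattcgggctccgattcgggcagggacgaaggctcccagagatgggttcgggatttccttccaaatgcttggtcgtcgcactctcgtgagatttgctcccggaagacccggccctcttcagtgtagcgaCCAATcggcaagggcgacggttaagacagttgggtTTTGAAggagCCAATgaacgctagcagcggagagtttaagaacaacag
Cdk1: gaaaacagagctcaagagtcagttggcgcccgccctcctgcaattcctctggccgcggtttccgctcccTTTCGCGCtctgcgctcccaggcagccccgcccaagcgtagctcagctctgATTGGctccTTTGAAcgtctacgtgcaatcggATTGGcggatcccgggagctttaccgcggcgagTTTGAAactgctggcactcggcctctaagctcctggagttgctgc
Mcm5: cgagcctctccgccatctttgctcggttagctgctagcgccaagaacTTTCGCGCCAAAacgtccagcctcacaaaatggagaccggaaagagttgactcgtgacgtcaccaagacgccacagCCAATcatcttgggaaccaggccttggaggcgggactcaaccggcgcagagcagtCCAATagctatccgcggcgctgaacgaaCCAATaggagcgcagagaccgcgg

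Libraries held 20818989 to 51241336 counts, at which 3 counts correspond to between 0.0585 and 0.144 CPM (counts scaled to a fixed library total), so no member was near the limit of detection and intervals from counting cover counting error only. CPM were scaled by trimmed mean of M values (TMM) factors over all libraries. Keratins Krt8 and Krt18 of the BMEL line were abundant in cultures and tumour cells, whereas Epcam, a usual epithelial marker, was at or near 0 there (at most 0.838 CPM) and higher in stroma (3.06 to 6.49 CPM). Stroma also held 267 to 641 CPM of Krt8, against 3158 to 5370 CPM in tumour cells. Counts at the mouse gene Hras did not follow the Ras labels, with 82.9, 87.2 and 71.3 CPM in empty vector, 102, 47.1 and 86.4 in RasLOW and 50.5, 80 and 71.5 in RasHIGH cultures, and it is not known how many reads of the human transgene are counted there. Empty vector replicates 1 and 2 were sequenced in lane 3 and the other 7 cultures in lane 4.

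The members were most abundant in the cultures, lower in tumour cells and lowest in stroma. Summarised as the mean of log2(CPM + 1) over the 49 members, the level was 6.52, 6.64 and 6.62 in the empty vector cultures. It was 7.01, 5.10 and 6.96 in RasLOW and 4.37, 6.70 and 6.67 in RasHIGH cultures. The liver and peritoneal tumour cells stood at 5.65, 5.13, 4.99 and 5.44 and at 5.06, 5.23, 5.32 and 5.18, mouse by mouse. Liver stroma stood at 4.49, 4.66, 4.57 and 4.73 and peritoneal stroma at 4.90, 4.82, 4.88 and 4.92. All empty vector cultures thus lay above all tumour cell and stromal libraries, whereas 1 RasLOW and 1 RasHIGH culture lay among or below them. Members took between 0.66% and 0.758% of all counts in empty vector cultures and between 0.146% and 0.18% in stroma.

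**Figure D1:**
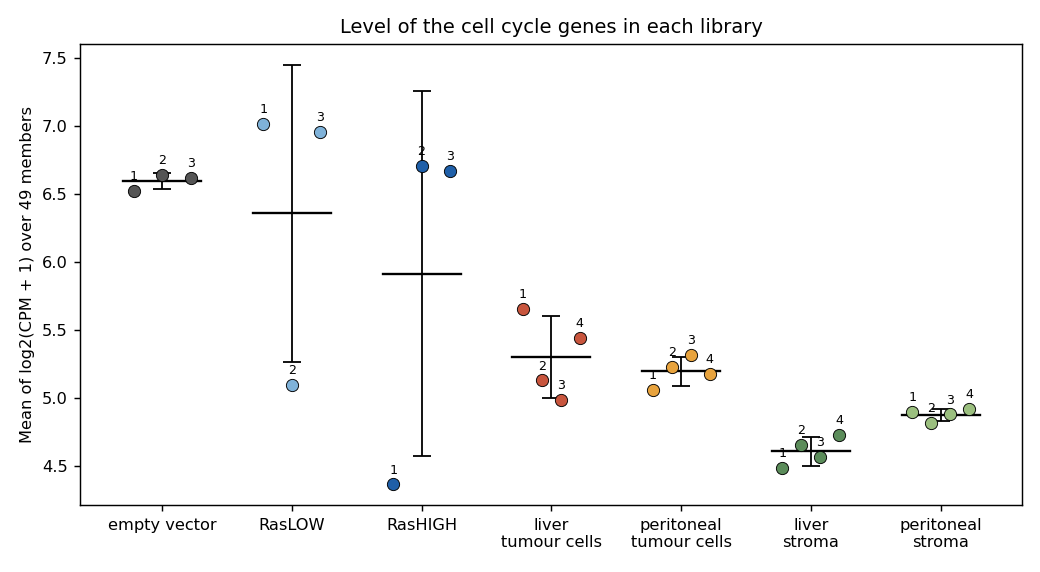
Level of the 49 members in each library (y axis, mean of log2(CPM + 1)), by group, with numbers naming the culture or mouse, horizontal lines the mean and bars the SD. RasLOW replicate 2 (5.10) and RasHIGH replicate 1 (4.37) lie far below the other cultures, which span 6.52 to 7.01.

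Per kilobase of exon, the most abundant member in the empty vector cultures was Rrm2, the small subunit of ribonucleotide reductase, at 199 ± 14.4 CPM per kb (SD, n = 3), followed by the sliding clamp Pcna at 102 ± 2.33 and topoisomerase Top2a at 68.6 ± 8.21. The ranges of Top2a, Mcm2 (62.5 ± 6.76), Rrm1 (62.1 ± 3.57) and Mcm3 (59 ± 9.87) overlapped. The least abundant were E2f2 at 3.33 ± 0.58 and E2f7 at 5.76 ± 0.94 CPM per kb, so the module spanned about 60-fold in level. On mm9, Rrm2 lies at chr12:25393106-25399011, E2f2 at chr4:135728309-135751972 and Mki67 at chr7:142881471-142908062, all annotated as protein-coding.

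**Figure D2:**
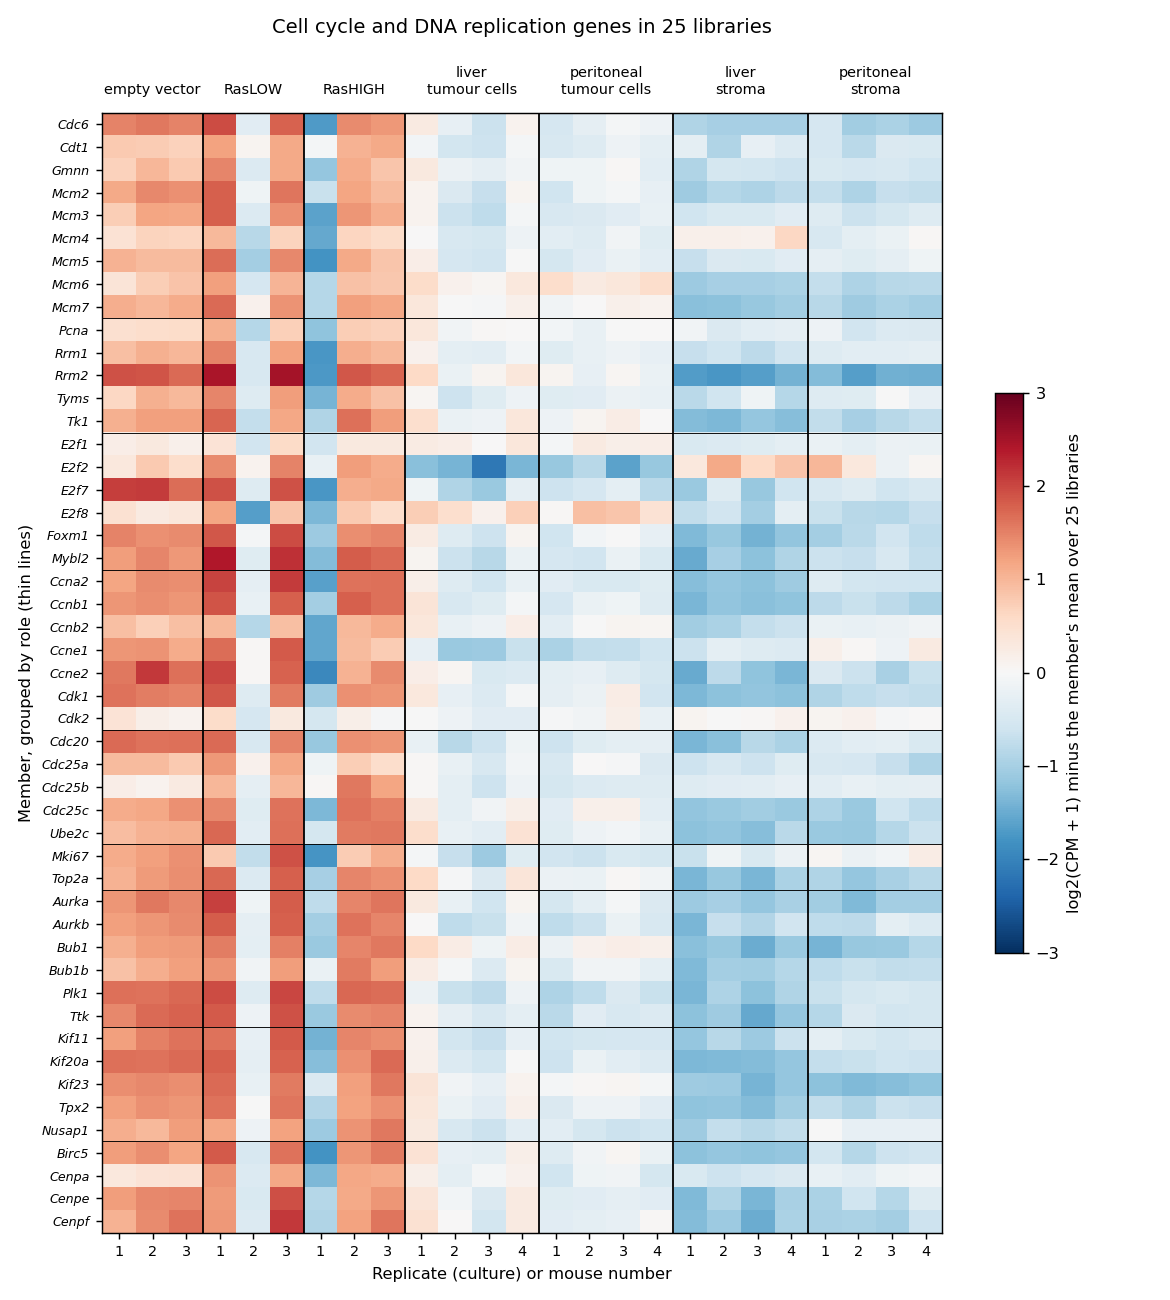
Levels of the 49 members (one line each, grouped by role) in 25 libraries, as log2(CPM + 1) minus the mean of the member over all libraries, with red above and blue below that mean. RasLOW replicate 2 and RasHIGH replicate 1 are pale or blue where the other 7 cultures are red, and E2f2 is lowest in tumour cells.

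The widest spread among replicates was found in the Ras cultures. RasLOW replicate 2 and RasHIGH replicate 1 were the lowest culture of their population for 49 of 49 members, whereas 33.42% and 33.95% of all 15757 expressed genes were lowest there. The median SD of a member's log2(CPM + 1) was 1.14 in RasLOW and 1.40 in RasHIGH, against 0.213 and 0.192 over all genes, and 0.107 against 0.125 in empty vector cultures. RasLOW replicate 2 was at a median 4.04-fold and RasHIGH replicate 1 at a median 5.79-fold below the mean of the other 2 cultures. At least a 2-fold gap was seen in 48 and 46 members, against 3.45% and 4.01% of all genes. RasLOW replicate 2 and RasHIGH replicate 1 were below every empty vector culture for all 49 members, against 33.4% and 36.2% of all genes, and their depths, 27224551 and 25227644 counts, were within the range of the other cultures.

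Proliferation markers followed this pattern. Mki67, a coat protein of mitotic chromosomes, measured 275, 94.5 and 603 CPM in RasLOW, 46.1, 272 and 342 in RasHIGH and 344, 371 and 409 in empty vector cultures. Top2a, which untangles replicated DNA, measured 864, 195 and 905 CPM in RasLOW, 131, 721 and 676 in RasHIGH and 543, 634 and 690.1 in empty vector cultures. RasHIGH replicate 1 was the lowest of the 9 cultures and RasLOW replicate 2 the next for both genes.

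Among replication genes the gap was widest for Rrm2, at 841, 110.3 and 876 CPM in RasLOW and 45.7, 566 and 522 CPM in RasHIGH, or 2.95 and 3.54 log2 units between the low culture and its 2 companions. Mcm5, a helicase subunit, measured 219.9, 33.2 and 187 CPM in RasLOW and 19, 153 and 122 in RasHIGH. Cdc6, which loads the helicase, measured 67.9, 13.1 and 59.3 CPM in RasLOW and 4.51, 46.4 and 43 in RasHIGH. The gaps of these 3 genes were all above 2 log2 units. Mcm2 (294, 76.7 and 255 CPM in RasLOW, 51.9, 193 and 163 in RasHIGH) and Pcna (361, 94.6 and 282 CPM in RasLOW and 74.1, 289 and 279.6 in RasHIGH) showed the same low cultures. Cyclin E1, Ccne1, which starts S phase with Cdk2, was at 37.1, 11.2 and 41.6 CPM in RasLOW and 3.03, 22.1 and 19.1 in RasHIGH. The transcription factor E2f8, a late repressor of E2F targets, was at 108, 14.2 and 84 CPM in RasLOW and 17.9, 81.6 and 68.7 in RasHIGH, and with Cdc25b and E2f1 it was one of 3 members not lower in RasHIGH replicate 1 than in RasLOW replicate 2. Empty vector cultures had 580.3, 570.1 and 507 CPM of Rrm2, 143, 134 and 133 of Mcm5, 48.9, 52.3 and 48.6 of Cdc6, 185, 229 and 218 of Mcm2, 240.1, 247 and 251 of Pcna, 28.6, 29.3 and 24.9 of Ccne1 and 64.5, 57.1 and 59.6 of E2f8.

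The G2 and mitosis members were low in the same 2 libraries. Cyclin B1, Ccnb1, measured 139.9, 31.3 and 129.8 CPM in RasLOW and 17.8, 130 and 117 in RasHIGH, and cyclin A2, Ccna2, 321, 64.5 and 339.9 CPM in RasLOW and 24.6, 243 and 248 in RasHIGH. Their kinase Cdk1 measured 187, 38.5 and 151 CPM in RasLOW and 23.8, 133 and 129 in RasHIGH. Each of these 3 genes was at least 3-fold lower in the low culture than in either of its companions. The polo kinase Plk1 stood at 150, 28.8 and 154 CPM in RasLOW and 21.8, 127 and 122 in RasHIGH, Aurora A, Aurka, at 144, 31.2 and 124 CPM in RasLOW and 19.9, 96.5 and 106 in RasHIGH, and the activator of the anaphase-promoting complex Cdc20 at 104, 22.1 and 90.0 CPM in RasLOW and 13.8, 83.4 and 80.1 in RasHIGH. The kinesin Kif11, which pushes spindle poles apart, stood at 122, 32.7 and 143 CPM in RasLOW and 13.9, 109 and 104 in RasHIGH, survivin, Birc5, at 135, 26.1 and 116 CPM in RasLOW and 10, 94.8 and 112 in RasHIGH, and the transcription factor Foxm1 at 235, 61.7 and 254 CPM in RasLOW and 29.7, 172 and 180.4 in RasHIGH. The histone variant of centromeres, Cenpa, stood at 74.8, 21.5 and 65.4 CPM in RasLOW and 10.7, 65.1 and 62.9 in RasHIGH. In each of these genes RasHIGH replicate 1 was the lowest of the 9 cultures and RasLOW replicate 2 the next. In the empty vector cultures Ccnb1 measured 93.8, 98.7 and 94.4 CPM, Cdk1 159, 150.3 and 145, Plk1 119.8, 119 and 126 and Cdc20 105, 99.5 and 101. Aurka measured 87.5, 104 and 94.7 CPM there, Kif11 93, 113 and 123, Birc5 89.4, 98.7 and 85.2, Foxm1 183, 168 and 174 and Ccna2 179.6, 209.6 and 208, and all 3 empty vector cultures lay above both low cultures for each gene.

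The gap was smallest for Cdk2, the kinase partner of cyclin E, with 51.6, 24.6 and 43.2 CPM in RasLOW and 23.8, 39.4 and 34.1 in RasHIGH. The phosphatase Cdc25a, with 77.4, 33.9 and 70.3 CPM in RasLOW and 28, 51.8 and 44.5 in RasHIGH, the transcription factor E2f1, with 46.8, 23.1 and 52.6 CPM in RasLOW and 23.1, 42.9 and 43.3 in RasHIGH, and the licensing factor Cdt1, with 83.8, 37.9 and 79.8 CPM in RasLOW and 34.3, 74.8 and 80.1 in RasHIGH, were next. In empty vector cultures Cdk2 stood at 47.2, 39.8 and 37.7 CPM, Cdc25a at 59.9, 60.9 and 53.5, E2f1 at 40.7, 43.4 and 39.4 and Cdt1 at 62.5, 61.5 and 58.3. These 4 genes act before or at the start of S phase. Over the 49 members the gaps in the 2 populations had a Pearson r of 0.77 and a Spearman rho of 0.64 across genes, which share their libraries and are not independent replicates, and r was 0.71 across all genes. The gap was wider in RasHIGH in 43 members. The replication members had a median gap of −1.75 in RasLOW and −2.14 in RasHIGH, and the G2 and mitosis members one of −2.03 and −2.51 log2 units. The sample titles give the 2 low libraries consecutive identifiers, as they do RasLOW replicate 3 and RasHIGH replicate 2, which were not low, and the part of handling in the gap was not tested.

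**Figure D3:**
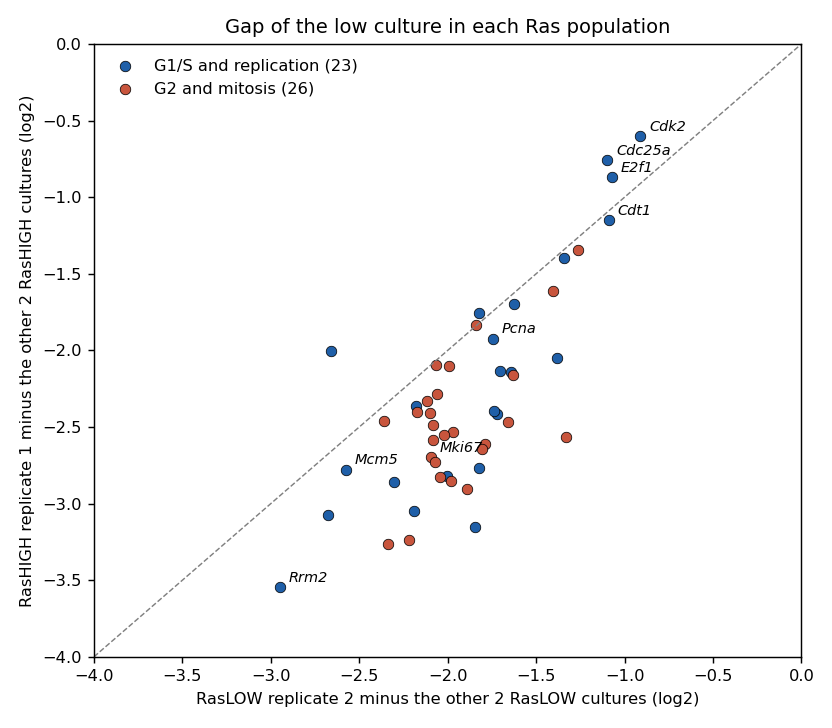
Each point is a member, with the log2 gap of RasLOW replicate 2 to its 2 companions (x axis) against that of RasHIGH replicate 1 (y axis), coloured by phase, and the dashed line marks equal gaps. All points lie below 0 on both axes, 43 of 49 lie below the line, Rrm2 at −2.95 and −3.54 is farthest and Cdk2 at −0.91 and −0.60 nearest to 0.

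Genes of Cdk inhibitors, and with them Cdkn2a and the D-type cyclins, were read in the same cultures. They are no members and were added after the levels of the members had been seen. Cdkn1a, which encodes p21, measured 244, 483 and 219 CPM in RasLOW, 396, 194 and 254 in RasHIGH and 539, 558 and 520.4 in empty vector cultures, so that it was highest in the low culture of each Ras population yet not above the empty vector. Cdkn2b, which encodes p15, measured 47.8, 71 and 45.3 CPM in RasLOW, 126, 56.4 and 47.8 in RasHIGH and 43.1, 39.5 and 52.5 in empty vector cultures. Cdkn2a, whose count joins its 2 transcripts, measured 90.4, 129 and 80.4 CPM in RasLOW, 161, 124 and 97.8 in RasHIGH and 50.9, 64.9 and 67.6 in empty vector cultures. The paper reports that these cells express the ARF product of Cdkn2a but not INK4A. Its count is therefore not read as that of a Cdk inhibitor. Cdkn1a, Cdkn2b and Cdkn2a were thus highest in the culture in which the members were lowest, within each Ras population. Cdkn2c, which encodes p18, went the other way, at 13.2, 3.28 and 17.5 CPM in RasLOW, 2.35, 11.5 and 9.02 in RasHIGH and 9.53, 10.3 and 8.88 in empty vector cultures, and was lowest in the 2 low cultures. Cdkn2d, which encodes p19, measured 14.4, 9.91 and 17.4 CPM in RasLOW, 7.58, 14.2 and 8.3 in RasHIGH and 8.59, 8.16 and 11.7 in empty vector cultures, and was also lowest in the low culture of each Ras population. Cdkn1b, which encodes p27, at 42, 39.7 and 41.4 CPM in RasLOW and 48.5, 42.6 and 45.7 in RasHIGH, differed little among those cultures, and Ccnd1, cyclin D1, stood at 2125, 2315 and 1842 CPM in RasLOW and 1646, 1747 and 1650 in RasHIGH without a drop of the size seen in the members. Cyclin D2, Ccnd2, measured 915, 2406 and 1230 CPM in RasLOW, 1279, 730 and 665 in RasHIGH and 1798, 1565 and 1603 in empty vector cultures, and was highest in the low culture of each Ras population. Cyclin D3, Ccnd3, measured 86.6, 74.0 and 111 CPM in RasLOW, 51.8, 71.95 and 53.5 in RasHIGH and 66.1, 74.9 and 76.4 in empty vector cultures. Ccnd3 was lowest in the low culture of each Ras population, close to replicate 3 in RasHIGH. The part of these genes in the members' levels was not tested.

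No member was called between cultures. The quasi-likelihood test of edgeR, with p-values adjusted over every gene in the fit by the Benjamini-Hochberg method and called under 0.05, called 0 of 49 members in RasLOW against empty vector, where it called 5.96% of all genes. At an unadjusted p under 0.05 it was also 0 members, against 21.4% of genes, and DESeq2 called 0 members and 12% of genes. For RasHIGH against empty vector, edgeR called 0 members and 22.6% of genes, the unadjusted count was 0 members against 35.1%, and DESeq2 called 0 members and 23.9%. Between RasHIGH and RasLOW, edgeR called 0 members and 0.0752% of genes, the unadjusted count was 0 against 9.78%, and DESeq2 called 0 members and 3.03%. The members' median log2 fold change was −0.05, −0.39 and −0.34 in these comparisons, against −0.03 to 0.01 over all genes. The interval around single members was wide, as for Mki67 between RasHIGH and empty vector at -0.80 ± 0.61 (SE), and the test does not show that the populations were alike.

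These counts rest on the 2 low libraries. Without RasLOW replicate 2, 13 members were called higher in RasLOW than in empty vector cultures and 0 lower, against 7.81% and 10.8% of all genes, and the members' median became 0.33. This library was left out for its low members, so the direction of this count is partly set by that choice. The members with the largest differences there were Mybl2, a transcription factor of the S and G2 waves (56.4, 65.4 and 58.4 CPM in empty vector and 126, 17.5 and 109 in RasLOW, log2 fold change 0.92 ± 0.12, adjusted p = 0.00547 by edgeR), and E2f2 (13.6, 19.2 and 15.9 CPM in empty vector and 30.2, 11.7 and 32.1 in RasLOW, log2 fold change 0.89 ± 0.17, adjusted p = 0.0149). Cenpa (36, 38.6 and 39 CPM in empty vector, log2 fold change 0.84 ± 0.11, adjusted p = 0.00581) and the phosphatase Cdc25b, an activator of Cdk1 (30.7, 28.7 and 32.3 CPM in empty vector and 54.1, 21.9 and 53.7 in RasLOW, log2 fold change 0.77 ± 0.11, adjusted p = 0.00812), came next.

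Without RasHIGH replicate 1, 7 members were called higher and 3 lower in RasHIGH than in empty vector cultures, against 14.8% and 16.2% of all genes. The share of members called higher was thus near that of all genes. This library was also left out for its low members, so the direction of these counts is partly set by that choice. Cdc25b was higher at 27.2, 81.5 and 61 CPM (log2 fold change 1.20 ± 0.14, adjusted p = 0.00145 by edgeR), as were Cenpa (0.74 ± 0.10), Ube2c, a ubiquitin-conjugating enzyme of mitotic exit (0.54 ± 0.10), E2f2 (0.64 ± 0.17), Mybl2 (0.41 ± 0.10), Ccnb1 (0.35 ± 0.10) and Cdt1 (0.33 ± 0.09). The atypical repressor E2f7 was lower, at 3.07, 28.1 and 28.9 CPM against 56.4, 57.1 and 42.1 in empty vector cultures (log2 fold change -0.88 ± 0.15, adjusted p = 0.00636), as were Ccne1 (-0.44 ± 0.14) and Cdc20 (-0.34 ± 0.10). With both low libraries left out, 0 members and 0.421% of all genes were called between RasHIGH and RasLOW by edgeR. Of the members, 14 had an unadjusted p under 0.05 and 42 a log2 fold change below 0 (median −0.30, against −0.01 over all genes). Both libraries were left out for their low members, so these counts are partly set by that choice. A further fit of all 6 libraries, chosen after seeing the data, took consecutive identifiers as a block. RasLOW replicate 1 and RasHIGH replicate 3, whose identifiers are not consecutive, were left over and formed the last pair. There edgeR again called 0 members (smallest adjusted p = 0.0579) and 1.99% of all genes. Of the members, 27 had an unadjusted p under 0.05 and 47 a log2 fold change below 0 (median −0.42, against −0.02 over all genes). The share of all genes at an unadjusted p under 0.05 was not counted in either fit.

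Tumour cells had higher members than stroma in the liver. There 37 of 49 members were called higher and 3 lower in tumour cells, against 38.4% and 39.4% of all genes, with a median log2 fold change of 0.90 against 0.00 over all genes. In 35 members every tumour cell library lay above every stromal library and in 2 below, against 34.6% and 36.7% of all expressed genes. In the peritoneum 30 members were called higher and 4 lower, against 39.5% and 37.1% of all genes, with a median of 0.41 against 0.07, and 22 members separated completely upwards and 5 downwards, against 32.4% and 36.8% of all expressed genes. The 6 epithelial marker genes (Krt8, Krt18, Krt19, Epcam, Cdh1 and Spp1) summed to 8385 to 9994 CPM in liver tumour cells and 1873 to 2548 in liver stroma. This sum does not show which of these genes made up the stromal level, and Epcam was higher in stroma than in tumour cells. RNA of these genes was thus present in stroma, and its part in the members' stromal levels was not tested. When 1 estimate of spread was shared by all 25 libraries, 25 and 8 members were called, against 71.1% and 70.6% of all genes.

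Of the genes of DNA synthesis, Rrm2 was 3.6-fold higher in liver tumour cells, at 234, 134, 162 and 196 CPM against 47.9, 44.9, 48.6 and 56.6 in stroma (log2 fold change 1.85 ± 0.16, adjusted p = 4.64e-07). In the peritoneum it measured 163, 129, 160.1 and 135 against 62.4, 48, 56.1 and 55.3 CPM (log2 fold change 1.47 ± 0.11, adjusted p = 7.64e-06). The groups did not overlap at either site. Thymidine kinase Tk1, which salvages thymidine, measured 53.6, 32.4, 33.8 and 47.9 against 14.7, 14.2, 16.1 and 14.8 CPM in the liver (log2 fold change 1.46 ± 0.16, adjusted p = 4.57e-06). The clamp Pcna differed less, with 216, 160.5, 174 and 174 against 159, 126, 138 and 141 CPM (log2 fold change 0.33 ± 0.11, adjusted p = 0.0134), and stromal mouse 1 lay close to the tumour cells.

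Licensing genes were uneven. The helicase subunits Mcm6 and Mcm7 were higher in tumour cells at both sites, as in the peritoneum with 204, 169, 177 and 201 against 85.6, 73.8, 78.2 and 80.2 CPM for Mcm6 (log2 fold change 1.31 ± 0.09, adjusted p = 4.37e-06). Mcm4, of the same ring, was lower in liver tumour cells, at 138, 97.5, 93.6 and 122 against 151, 152, 149 and 211 CPM (log2 fold change -0.58 ± 0.15, adjusted p = 0.00355), and at 0.00 in the peritoneum it was not called. Mcm5 measured 79.3, 48, 45.9 and 68 against 42.1, 50.3, 49.3 and 54.1 CPM in the liver, where the groups overlapped and it was not called. Mcm2 (0.69 ± 0.16 in the liver) and Cdc6 (0.93 ± 0.19) were called higher. The members of this ring thus did not move together in RNA level.

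Transcription factors split in direction. E2f2, an activator of S-phase genes, had the largest difference of all members at both sites, at 3.97, 3.48, 1.67 and 3.55 CPM in liver tumour cells against 13.7, 24.9, 16.7 and 20.2 in liver stroma (log2 fold change -2.59 ± 0.26, adjusted p = 2.3e-06). In the peritoneum it was at 4.31, 5.6, 2.86 and 4.36 against 22.4, 13.6, 9.46 and 11.2 CPM (log2 fold change -1.66 ± 0.31, adjusted p = 0.00115). E2f2 was lower in all 8 tumour cell libraries than in any stromal library. E2f8 went the other way, at 78.8, 67.5, 51.2 and 77.7 against 27.9, 31.5, 22.7 and 38.2 CPM in the liver (log2 fold change 1.17 ± 0.17, adjusted p = 5.6e-05) and 47.9, 89.4, 85 and 63.5 against 29.3, 25.9, 25.7 and 28.6 in the peritoneum (log2 fold change 1.45 ± 0.19, adjusted p = 0.000136). E2f1 (0.57 ± 0.09 and 0.44 ± 0.09) and Foxm1 (1.14 ± 0.17 and 0.64 ± 0.14) were called higher in tumour cells at both sites.

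Cyclins and mitotic genes were mostly higher in tumour cells, with 23 of 26 G2 and mitosis members called higher in the liver and 16 called higher and 2 lower in the peritoneum. The checkpoint kinase Bub1 measured 63.8, 49.3, 38.5 and 49.2 against 17.1, 18.4, 14.4 and 18.8 CPM in the liver (log2 fold change 1.52 ± 0.15, adjusted p = 1.85e-06). Top2a measured 393, 256, 194 and 335 against 100.4, 118, 100.4 and 135 CPM (log2 fold change 1.35 ± 0.19, adjusted p = 4.72e-05). The kinesin Kif23 of the central spindle measured 78.1, 83, 84.7 and 78.4 against 34.2, 32.1, 33 and 34.4 CPM in the peritoneum (log2 fold change 1.34 ± 0.06, adjusted p = 8.88e-07), and none of these groups overlapped. Ccnb1 (1.18 ± 0.17 and 0.60 ± 0.11), Cdk1 (1.18 ± 0.14 and 0.68 ± 0.16), Aurka (0.99 ± 0.17 and 0.87 ± 0.13) and Birc5 (1.27 ± 0.16 and 0.58 ± 0.12) were called higher in liver and peritoneum. Ccna2, at 0.20 ± 0.07 in the peritoneum, was called by edgeR but not by DESeq2.

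Mki67 and Ccne1 departed from this. Mki67 was lower in peritoneal tumour cells, at 107, 101, 115 and 109 CPM against 166, 141, 150.4 and 187 in stroma (log2 fold change -0.51 ± 0.10, adjusted p = 0.00161), and in the liver it measured 152, 98.2, 74.4 and 124 against 100.2, 145, 116 and 139.9 CPM and was not called (-0.19 ± 0.19). Ccne1 was lower in peritoneal tumour cells, at 5.15, 6.12, 6.28 and 6.83 against 12.2, 11.1, 9.7 and 13.2 CPM (log2 fold change -0.86 ± 0.15, adjusted p = 0.000708). Top2a and Mki67, both used to mark dividing cells, thus differed in opposite directions between the 2 peritoneal fractions.

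Of the replication genes, Cdc6 measured 20.4, 14.1, 10.3 and 18.2 CPM in liver and 11.4, 13.7, 16 and 15 in peritoneal tumour cells, against 8.45, 7.96, 7.96 and 7.93 in liver and 11.5, 7.68, 8.14 and 7.41 in peritoneal stroma. Mcm2 measured 89.5, 62, 51 and 87.9 CPM in liver and 54.6, 76.5, 80.4 and 69.9 in peritoneal tumour cells, against 39.6, 45.5, 43.4 and 47.8 in liver and 50.2, 43.8, 51.2 and 49.9 in peritoneal stroma. E2f1 measured 41.6, 40.2, 35.7 and 44.9 CPM in liver and 33.5, 42.4, 39.6 and 40.2 in peritoneal tumour cells, against 25.1, 26.2, 27.2 and 28.7 in liver and 30.2, 28.7, 31 and 30.6 in peritoneal stroma, and the fractions did not overlap in the liver. In the peritoneum they did not overlap either. The phosphatase Cdc25a, which releases Cdk2 at G1/S, measured 31.7, 26.2, 21.6 and 29 CPM in liver and 21.8, 31, 30.2 and 22.6 in peritoneal tumour cells, against 19.7, 21.8, 19.8 and 23.6 in liver and 21.7, 21.4, 18.7 and 15.7 in peritoneal stroma (0.33 ± 0.13 and 0.51 ± 0.16). Mcm5 in the peritoneum measured 47.6, 53.7, 59.7 and 54.5 against 56.9, 53.3, 56.9 and 62.5 CPM, Pcna 163, 146, 171 and 172 against 153, 115, 129 and 128, and in the liver Ccne1 measured 8.94, 4.49, 4.57 and 6.5 against 6.64, 8.7, 8.13 and 7.93.

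The G2 and mitosis genes were read in the same way. Ccnb1 measured 48.2, 26, 28.5 and 35.3 CPM in liver and 25.8, 32, 33.8 and 28 in peritoneal tumour cells, against 13.7, 15.6, 14.9 and 15.4 in liver and 20.8, 22.6, 21 and 18.5 in peritoneal stroma. Cdk1 measured 63.5, 42.6, 37.9 and 48.9 CPM in liver and 41.9, 44.7, 60.0 and 34 in peritoneal tumour cells, against 19.5, 21.1, 22 and 21.2 in liver and 26.8, 29.8, 31.2 and 30.1 in peritoneal stroma. In the liver mouse 1 was the highest tumour library for both genes, and no tumour library lay as low as the stroma. Cdc20 measured 26.9, 17.4, 20.0 and 28.6 CPM in liver and 20.2, 24.4, 25.3 and 25.9 in peritoneal tumour cells. Aurka measured 42.3, 29, 22.2 and 36.4 CPM in liver and 23.3, 27.6, 32.6 and 25 in peritoneal tumour cells, against 15.6, 16.7, 14.8 and 16.9 in liver and 16.1, 13, 16.4 and 16.4 in peritoneal stroma. Foxm1, which drives the mitotic wave, measured 75.9, 48.9, 41.7 and 68.6 CPM in liver and 42.4, 60.8, 64 and 53.8 in peritoneal tumour cells, against 25, 28.8, 23.4 and 27.8 in liver and 31.4, 36.2, 43.2 and 37.6 in peritoneal stroma. Tumour cells lay above stroma for Aurka at both sites. The motor Kif11 measured 42.6, 26.4, 23.6 and 32.7 CPM in liver and 25.3, 26.7, 27.3 and 27.1 in peritoneal tumour cells, against 16.8, 21.5, 17.7 and 24.5 in liver and 31.4, 28.2, 26.2 and 27.8 in peritoneal stroma (0.61 ± 0.18 and -0.03 ± 0.08), and it was not called in the peritoneum, where the fractions overlapped. Birc5 measured 50.6, 30.9, 30.2 and 42.1 CPM in liver and 28.2, 34.5, 38.8 and 32.1 in peritoneal tumour cells, against 15.2, 16, 15.5 and 16.1 in liver and 24.8, 20.0, 23.9 and 24.7 in peritoneal stroma. Ccna2 was at 89.4, 60.2, 51.5 and 67 CPM in liver and 61.9, 57.1, 56.7 and 61 in peritoneal tumour cells, Cenpa at 20.5, 18.3, 20.1 and 21.2 in liver and 24.4, 22.8, 26 and 27.2 in peritoneal stroma, and Top2a at 230, 227, 267 and 242 against 138, 116, 132 and 147 in the peritoneum.

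**Figure D4:**
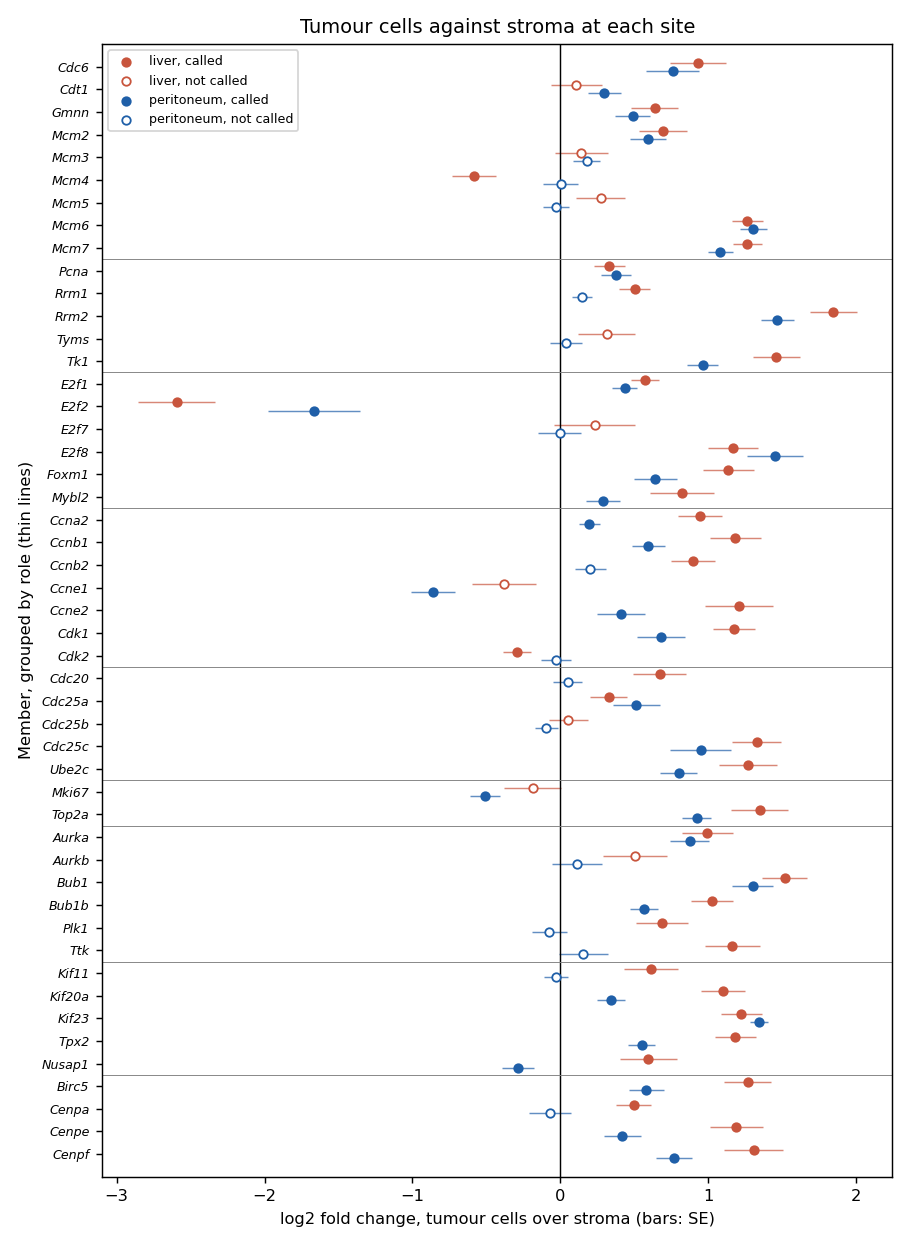
Log2 fold change of tumour cells over stroma (x axis, bars SE) for each member, grouped by role, in the liver (red) and the peritoneum (blue), with filled points for members called by edgeR. In the liver 37 of 49 members are called to the right of 0, and E2f2 lies farthest left at −2.59 and −1.66.

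The site of the tumour went with the members in stroma but, by this test, not in tumour cells. Between liver and peritoneal stroma 25 members were called lower and 1 higher in the liver, against 18.5% and 14.9% of all genes, with a median log2 fold change of −0.38 against 0.02 over all genes. Of the G2 and mitosis members 17 of 26 were called lower, and of the replication members 8 of 23. Ttk, the kinase that starts the spindle checkpoint, measured 4.12, 4.7, 3.14 and 4.36 CPM in liver stroma against 5.68, 7.92, 7.17 and 7.37 in peritoneal stroma (log2 fold change -0.83 ± 0.18, adjusted p = 0.00593). Cdc20 measured 11.6, 12.5, 17.1 and 15.9 against 23.6, 25.3, 25.5 and 22.5 CPM (log2 fold change -0.81 ± 0.13, adjusted p = 0.00123). Nusap1, which bundles spindle microtubules, measured 11.4, 14.8, 13.4 and 14.6 against 24.5, 20.8, 20.9 and 20.7 CPM (log2 fold change -0.73 ± 0.11, adjusted p = 0.000996). The 4 mice of each group did not overlap for any of these genes.

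The cyclins Ccnb2 and Ccna2 showed the same direction. Ccnb2 measured 14, 15, 17.8 and 18.8 CPM in liver and 25.9, 25.5, 26.1 and 27.6 in peritoneal stroma (log2 fold change -0.73 ± 0.11, adjusted p = 0.000678), and Ccna2 31.8, 34.8, 32.9 and 37 in liver and 59.4, 53.2, 52 and 51.6 in peritoneal stroma (log2 fold change -0.71 ± 0.08, adjusted p = 0.000151). Plk1 (-0.63 ± 0.13), Birc5 (-0.62 ± 0.09), Foxm1 (-0.55 ± 0.11), Cdk1 (-0.54 ± 0.08) and Mki67 (-0.41 ± 0.13) were also called lower in the liver. Mcm4 was the member called higher there, at 151, 152, 149 and 211 against 96.9, 112, 119 and 139 CPM (log2 fold change 0.46 ± 0.14, adjusted p = 0.0318), and mouse 4 of the peritoneum came near to the liver values. The call of Mcm4 was lost without the liver stroma of mouse 4 and without the peritoneal stroma of mouse 2 or of mouse 3. Top2a (-0.28 ± 0.12), Rrm2 (-0.21 ± 0.10), Pcna (0.06 ± 0.10) and Aurka (-0.00 ± 0.11) were not called.

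Marker sums of some cell types also differed between the 2 stromal fractions, and those of others overlapped. All 6 fibroblast markers were present at both sites, and summed to 4016 to 8047 CPM in liver and 52490 to 80650 in peritoneal stroma. The 8 leukocyte and macrophage markers summed to 6704 to 8229 and 5099 to 7340 CPM, which overlapped. Neutrophil markers, at 1122 to 1733 and 475 to 2905 CPM, overlapped as well, as did the lymphocyte, endothelial and mesothelial marker sums. The same 6 epithelial markers summed to 1873 to 2548 and 1161 to 1629 CPM, without overlap. Hepatocyte markers summed to 19.0 to 169 CPM in the liver and at most 2.80 in the peritoneum, and of the erythroid markers Hba-a1, Hbb-b1 and Hbb-b2 were at 0 in both. The part of these cell types in the members' levels was not tested. With 1 estimate of spread shared by all 25 libraries, edgeR called 0 members between the stromal fractions, against 23.7% of all genes. At an unadjusted p under 0.05 it was also 0 members, and the median was −0.34. DESeq2 on the stromal libraries called 27 members, against 31.7% of all genes.

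In tumour cells 0 members were called between liver and peritoneum by edgeR, against 3.2% of all genes, 2 members (Cenpe and Cenpa) had an unadjusted p under 0.05, against 20.2%, and DESeq2 called 0 members and 8.32% of genes. The ranges of the 2 sites overlapped for all 49 members and for 88.8% of all expressed genes. The motor protein Cenpe, which carries chromosomes to the spindle equator, measured 71.9, 52.3, 40.4 and 66.8 CPM in the liver and 42.7, 43.4, 45.4 and 43.6 in the peritoneum (log2 fold change 0.39 ± 0.16, adjusted p = 0.191), and only mouse 3 of the liver lay below the peritoneal values. Cenpa measured 32.7, 23.1, 27.8 and 31.6 CPM in the liver and 18.7, 26.4, 26.6 and 19.6 in the peritoneum (log2 fold change 0.33 ± 0.15, adjusted p = 0.246). Although not called, 43 members had a log2 fold change above 0 (median 0.11). Liver tumour cells of mouse 1 were the highest of their group in 45 members, as for Top2a at 393, 256, 194 and 335 CPM and Mki67 at 152, 98.2, 74.4 and 124 CPM, and those of mouse 3 were the lowest in 37. In the peritoneum, tumour cells of mouse 1 were the lowest in 34 members and also held more RNA of other cells, with leukocyte markers at 261 CPM in sum and fibroblast markers at 1446, the highest of their group, and its part in the low levels was not tested.

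The difference between the sites was itself different in tumour cells and stroma for 11 members, all in the direction of a higher liver value in tumour cells, against 6.79% of all genes in that direction and 7.5% in the other, and with a median over the 49 members of 0.43 against −0.12 over all genes. Their log2 interaction terms ran from 0.41 for Rrm1, the large subunit of ribonucleotide reductase, to 1.06 for Ttk (log2 fold change 1.06 ± 0.25, adjusted p = 0.00963). The others were Nusap1 (0.93 ± 0.24), Cenpe (0.82 ± 0.24), Plk1 (0.81 ± 0.23), Kif20a, a kinesin of cytokinesis (0.81 ± 0.19), Ccna2 (0.80 ± 0.18), Ccnb2 (0.74 ± 0.19), Birc5 (0.74 ± 0.21), Tpx2, an activator of Aurora A (0.68 ± 0.18), and Cenpa (0.62 ± 0.19). Of the 11, 10 act in G2 or mitosis. Ttk stood at 11.9, 8.9, 7.63 and 8.8 CPM in liver and 5.9, 8.45, 7.6 and 7.97 in peritoneal tumour cells. Plk1 stood at 33.3, 23.3, 21.6 and 33.8 CPM in liver tumour cells and 19.3, 22, 27.9 and 23.3 in peritoneal ones, but at 13.9, 19.4, 15.4 and 19.6 in liver and 23.3, 25.7, 27.3 and 25.7 in peritoneal stroma. This count ranged from 6 to 21 when single libraries were left out, with 21 without the liver tumour cells of mouse 3, 6 without those of mouse 1 or mouse 4 or the liver stroma of mouse 1, and 7 without the liver stroma of mouse 3 or the peritoneal tumour cells of mouse 4.

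**Figure D5:**
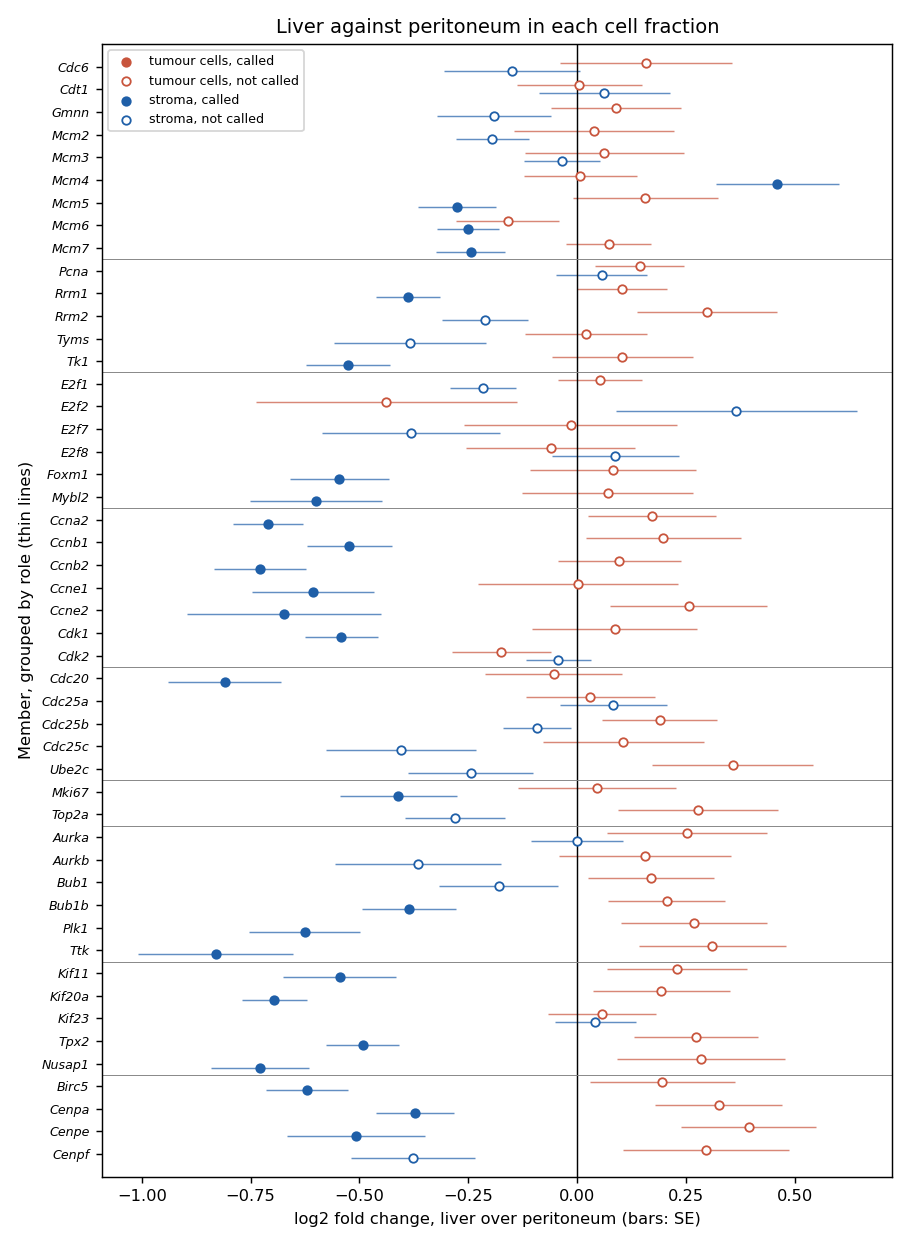
Log2 fold change of liver over peritoneum (x axis, bars SE) for each member, grouped by role, in tumour cells (red) and stroma (blue), with filled points for members called by edgeR. Of the stromal points 25 are called to the left of 0 and Mcm4 to the right, while no point of the tumour cells is called.

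Tumour cells were set beside the RasHIGH cultures, in a comparison in which culture, dissociation, sorting and sequencing lane differ together and cannot be told apart. In the liver 7 members were called lower and 0 higher, against 22.1% and 23% of all genes, and in the peritoneum 10 lower and 0 higher, against 18.6% and 19.3%. The 42 and 39 other members were not called, and the mean levels of the module overlapped between RasHIGH and tumour cells at both sites. The median log2 fold changes were −0.97 and −1.13, against −0.01 over all genes at both sites. E2f2 had the largest difference again, at 9.13, 27.1 and 24.3 CPM in RasHIGH against the tumour levels given above (log2 fold change -2.66 ± 0.41, adjusted p = 0.00103 in the liver and log2 fold change -2.22 ± 0.38, adjusted p = 0.00358 in the peritoneum). Cdc25b measured 27.2, 81.5 and 61 CPM in RasHIGH, 26.9, 21.5, 16.8 and 23.7 in liver and 18.1, 19.5, 19.9 and 20.1 in peritoneal tumour cells (log2 fold change -1.34 ± 0.33, adjusted p = 0.00971 and log2 fold change -1.53 ± 0.31, adjusted p = 0.00696). Both RasHIGH cultures that were not low exceeded all tumour cell libraries for these genes.

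Plk1 (-1.69 ± 0.50 in the liver and -1.95 ± 0.50 in the peritoneum), Aurora B, Aurkb (-1.47 ± 0.53 and -1.63 ± 0.53), and Cdt1 (-1.13 ± 0.29 and -1.13 ± 0.27) were called lower at both sites. Ttk (-1.59 ± 0.54) and Nusap1 (-1.55 ± 0.52) were called in the peritoneum. In RasHIGH cultures Plk1 was at 21.8, 127 and 122 CPM, Aurkb at 13.1, 88.4 and 78.6, Cdt1 at 34.3, 74.8 and 80.1, Ttk at 4.58, 31.3 and 32.4 and Nusap1 at 11.1, 64.7 and 76.3, all with replicate 1 lowest. RasHIGH replicate 1 lay below all 8 tumour cell libraries in 42 members, against 29.1% of all expressed genes. Without it 46 members were called lower at each site, against 29.8% and 26.3% of all genes, with Cdk2, E2f1 and E2f8 as the members not called. This library was singled out for its low members, so leaving it out moves the members of RasHIGH up and this count is partly set by that choice. In liver and peritoneal tumour cells E2f8 then differed by -0.13 ± 0.17 and -0.06 ± 0.23, and E2f1 by -0.09 ± 0.12 and -0.14 ± 0.11. With RasLOW cultures in place of RasHIGH, 34 and 41 members were called, against 53.3% and 48.2% of all genes. Leaving out any library other than RasHIGH replicate 1 gave 3 or 4 called members in the liver and 2 to 4 in the peritoneum.

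The balance between the 2 phases also varied. The mean log2(CPM + 1) of the G2 and mitosis members minus that of the replication members was 0.33, 0.28 and 0.44 in empty vector, 0.15, 0.17 and 0.40 in RasLOW and 0.19, 0.40 and 0.58 in RasHIGH cultures. It was 0.09 to 0.19 in liver tumour cells and −0.06 to 0.01 in peritoneal ones, so these groups did not overlap although their total levels did. Liver stroma lay at −0.38 to −0.28 and peritoneal stroma at −0.20 to 0.01, again without overlap.

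Other genes of the pathways, from 2 lists of 42 replication and 51 mitosis genes that are no members, were read in the same comparisons. Between cultures 0 genes of either list were called in any of the 3 comparisons by edgeR, against 5.96%, 22.6% and 0.0752% of all genes. At an unadjusted p under 0.05 it was 1 of each list for RasLOW against empty vector and 0 otherwise, against 21.4%, 35.1% and 9.78% of all genes (DESeq2 calls were not counted for these lists). In the liver 32 replication genes were called higher and 1 lower in tumour cells than in stroma, and 45 and 0 mitosis genes, against 38.4% and 39.4% of all genes. The peritoneum gave 29 higher and 4 lower, and 30 higher and 2 lower, against 39.5% and 37.1% of all genes. The dUTPase gene Dut (1.40 ± 0.12 in the liver) and the condensin subunit Ncaph (1.69 ± 0.12) were highest of each list, followed by Uhrf1 (1.40 ± 0.17) and Cenpi (1.61 ± 0.17), and Orc1, of the origin recognition complex (-0.58 ± 0.20), was lower. In the peritoneum they were Dut (1.25 ± 0.11), Uhrf1 (1.17 ± 0.09), Zwint (1.75 ± 0.07) and Ncaph (1.36 ± 0.11), with Orc1 (-0.69 ± 0.20), Gins3 (-0.57 ± 0.23), Espl1 (-0.43 ± 0.13) and Cdca8 (-0.35 ± 0.09) lower. Between liver and peritoneal stroma 7 of 42 replication and 30 of 51 mitosis genes were called lower in the liver and 0 higher, against 18.5% and 14.9% of all genes. The replication genes called lower were thus near the share of all genes. Gins2, a helicase cofactor (-0.67 ± 0.14), and Ckap2, a spindle protein (-0.86 ± 0.12), were the largest, followed among the mitosis genes by Cenpn (-0.80 ± 0.16). In tumour cells Slbp, which binds histone mRNA, was called higher in the liver (0.42 ± 0.10), and no other gene of the lists was called, against 3.2% of all genes. For the interaction 14 mitosis genes were called in the direction of the members, led by Melk (1.06 ± 0.22) and Ckap2 (0.99 ± 0.27), and 1, Zwint (-0.34 ± 0.09), in the other, and 0 replication genes. Of all genes 6.79% and 7.5% were called in these directions. Set beside RasHIGH cultures, 5 of 42 replication and 9 of 51 mitosis genes were called lower in liver tumour cells, and 0 and 1 higher. In the peritoneum 4 and 16 were called lower, and 0 and 1 higher. Of all genes 22.1% and 18.6% were called lower in liver and peritoneum, and 23% and 19.3% higher. Only the mitosis genes in the peritoneum exceeded the share of all genes called lower. The gene called higher was securin, Pttg1, in liver (1.36 ± 0.19) and peritoneal (1.24 ± 0.24) tumour cells. Among those called lower were cyclin F, Ccnf (-2.04 ± 0.43 and -2.14 ± 0.43), Ect2 (-1.94 ± 0.56 and -2.10 ± 0.57), the kinase activator Dbf4 (-1.52 ± 0.34 and -1.77 ± 0.34) and the polymerase subunit Pold2 (-1.11 ± 0.25 and -1.02 ± 0.26).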

How the data were processed

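RNA was sequenced from 9 cultures and from 16 sorted fractions of tumours of 4 mice. The authors prepared mRNA libraries with the Universal Plus mRNAseq kit, aligned reads to mm9 with TopHat2 and deposited raw counts per gene without normalization. The counting program, its strand setting and the annotation are not given in the sources used here. The submitters' processing notes also name FastQC and Bowtie 0.12.2, and they name genome builds other than the mm9 of the paper. Reads of a gene and of its processed pseudogenes, as for Pcna and Tyms, could be shared. The methods describe the samples as independent biological samples, and all columns were matched to a sample. No libraries held identical counts.

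The counts of 2 groups at a time, without a block, were compared in R 4.3.3 with edgeR 4.0.16 (filterByExpr with a minimum count of 10, TMM, glmQLFit, glmQLFTest), adjusted by Benjamini-Hochberg over all genes tested and called at an adjusted p under 0.05. Values after a fold change are its standard error. DESeq2 1.42.0, other scaling and filters, 1 fit of all 25 libraries, mouse or replicate blocks and leaving out libraries were alternatives, and those without both low cultures, with identifier pairs or with DESeq2 without a low culture were chosen after seeing the data. The fit was tested on simulated data in which all genes shared the same small spread. It was not tested at the spread that the members had in the Ras cultures. Levels are means of log2(CPM + 1). Exon lengths and positions came from GENCODE for mm9, promoters from RefSeq for GRCm38.p6.

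Members and gene lists were chosen with earlier results of these data known. Levels in every library were given for a set of 21 members covering each role, and in each comparison for the 5 largest called changes. Of the other pathway genes, up to 2 called each way were named, and 1 gene that this rule picked is not reported here. Mouse numbers name the same animal, and the deviations of its fractions correlated by 0.22 and 0.19 on average in the tumour against stroma comparisons, 0.17 between stromal and −0.04 between tumour sites.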

Additional observations from a re-analysis of the deposited data

Results flagged for a closer look

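In groups of 4, a library stood apart from the other 3 in 2 of 92 groups of values examined, where chance alone gives about 1 in 20. Cdc6 measured 8.45 CPM in liver stroma of mouse 1 and 7.93 to 7.96 in the other mice, a gap that is clear only because those 3 lie close together. Aurka measured 13.0 CPM in peritoneal stroma of mouse 2 and 16.1 to 16.4 in the others.

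The difference between liver and peritoneum was tested between tumour cells and stroma, and 11 members passed at an adjusted p under 0.05 of edgeR. The log2 difference of the site effects was 1.06 for Ttk, 0.93 for Nusap1, 0.82 for Cenpe, 0.81 for Plk1, 0.81 for Kif20a, 0.80 for Ccna2, 0.74 for Ccnb2, 0.74 for Birc5, 0.68 for Tpx2, 0.62 for Cenpa and 0.41 for Rrm1. Marker sums of some stromal cell types, such as fibroblasts, differed between the sites, and the part of cell types in these differences was not tested.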

How the results depend on the processing

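Of 3585 values of single members under the alternatives, 3118 kept direction and side of the threshold, 149 lost the call, 134 gained it and 184 changed sign, of which 179 were not called in either fit. Counts, medians and levels were taken as close to the value reported within 1 SD, or 1.5 times for a count. The SD was that of the groups concerned, and for the level it was 1.09 in RasLOW and 1.34 in RasHIGH cultures. That limit was therefore wide for comparisons with Ras cultures, where staying within it says little about stability. Of 411 such values, 359 kept their sign and stayed close, 46 moved and 6 changed sign. Without the low culture the median of RasLOW against empty vector went from −0.05 to 0.33 (0.35 by DESeq2), that of RasHIGH against empty vector from −0.39 to 0.06 (0.07 by DESeq2) and, without RasHIGH replicate 1, that of RasHIGH against RasLOW from −0.34 to 0.10. The other was mitosis minus replication in peritoneal tumour cells, from −0.01 to 0.01 with a pseudocount of 0.1. The calls between cultures depended on single libraries. Leaving out one library gave 0 to 13 called members for RasLOW and 0 to 10 for RasHIGH against empty vector. DESeq2 without the low culture gave 21 and 13, against 25.4% and 33.8% of all genes. Among called values, Plk1 (0.29) and Birc5 (0.43) in RasLOW, Ccna2 (0.29) and Ccnb1 (0.36) in RasHIGH, and by edgeR Ccnb1 (0.35, and −0.53 to 0.35 over the libraries left out), turned positive, which by construction follows from the missing library. Between RasHIGH and RasLOW edgeR called 0 members under each alternative.

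Against RasHIGH cultures, leaving out one library gave 3 to 46 (liver) and 2 to 46 (peritoneum) called members, DESeq2 11 and 23, and RasLOW in their place 34 and 41. Of all genes DESeq2 called 42.8% and 38.4%, and with RasLOW in their place 53.3% and 48.2% were called. The interaction gave 6 to 21 when one library was left out, with medians of 0.29 to 0.61, and 6 with library totals. With 1 fit of all 25 libraries, which shares 1 estimate of spread, the calls were 1 for RasHIGH against empty vector, 0 between stromal sites, and 25 and 8 for tumour cells against stroma in liver and peritoneum. The shares of all genes called there were 27.6%, 23.7%, 71.1% and 70.6%. Scaling moved medians: −0.26 between stromal sites with library totals, and for tumour cells against stroma in the peritoneum 0.28 (DESeq2), 0.27 (RLE), 0.52 (library totals) and 0.31 (1 fit), where the median of all genes went from 0.07 to −0.07 with RLE and 0.18 with library totals. The difference in mean level there was 0.49 with library totals, 0.15 with RLE and 0.43 with the median over members. With the median, mitosis minus replication was 0.84 in empty vector, 0.47 in RasLOW, −0.13 in peritoneal tumour cells and −0.45 in liver stroma. The causes of these shifts were not tested.

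With the mouse as a block, 27 members were called between stromal sites, against 38.1% of all genes. For tumour cells against stroma 40 and 34 members were called, against 80.5% and 76.5% of all genes. It was 0 members between tumour sites and 10 in the interaction, against 0.78% and 17.3%. No count moved by over 1.5 times. Replicate numbers of the cultures share only a number (mean correlations −0.13, 0.06 and −0.30). A replicate block gave 0 called members in all 3 comparisons, against 2.4%, 17.9% and 0% of all genes. At this depth no member was near the limit of detection.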
